A study of Andrographis paniculata with 12 samples.

Results

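Gibberellins are diterpenoid hormones that promote stem and leaf growth, and the 34 assembled genes described here are the ones in leaves of Andrographis paniculata whose best Swiss-Prot name refers to gibberellin metabolism, perception or response. They were chosen by name: the description holds gibberellin, ent-kaurene, ent-kaurenoic, DELLA, GAST1, Snakin or GASA, and the mean level is at least 1 at 1 or more times. The name search found 34 of 32064 assembled genes, apart from 5 hits to ent-copalyl diphosphate synthase that were left out, and all 34 passed the minimum level, as did 29399 genes in all. The lowest maxima among the members were 1.33 (TR17186|c1_g1), 1.70 (TR32307|c0_g1) and 1.91 (TR55239|c0_g1), and no name hit lay below the minimum.

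Andrographis paniculata is a medicinal herb rich in labdane diterpenes, and its leaves were sampled at 0, 12, 24 and 48 h after methyl jasmonate (MeJA) was given, a volatile ester of the defence hormone jasmonic acid. The labels list 12 samples, 3 biological replicates for every one of the 4 times, with strand-specific libraries made from poly(A) RNA. The table used here holds 1 mean per assembled gene and time in normalised units that the authors do not name, so no replicate spread, SD or test stands behind any value and the depth is unknown. The dose and form of MeJA, plant age and clock times are not stated in the labels. Untreated leaves at 12, 24 and 48 h were not analysed, so treatment and elapsed time cannot be told apart. If all plants were treated at the same hour, the samples at 0, 24 and 48 h share an hour of day. Time of day then differs only in comparisons that involve 12 h. Results seen at 12 h alone therefore cannot be separated from time of day, and its part in them was not tested.

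Higher and lower here mean that log2(level + 1) at the later time differs by at least 1 from the earlier one, which is 2-fold on that scale. Such a count describes means and does not say whether a difference exceeds the variation between plants. Since it is not known whether the units are per length, levels are compared between times for 1 gene and not between genes. In leaf tissue, fewer cells of a type and less RNA per cell cannot be told apart.

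The labelled tissue was checked against 63 assembled genes named for leaf proteins (Rubisco, its activase, antenna, photosystem I and oxygen-evolving proteins). Their summed level was 86291, 5957, 22820 and 26778 at 0, 12, 24 and 48 h, and 55, 51 and 49 of the 60 with a level of at least 1 were lower at 12, 24 and 48 h than at 0 h. Of the 63, 8 were listed at 0 at 12 h, 4 at 24 h, 3 at 48 h, and none at the start. The 8 flower markers summed to 80.9, 85.4, 52.4 and 51.5, the 9 root markers to 83.6, 94.5, 88.2 and 102.8, and the 11 shoot meristem markers to 306.8, 441, 328 and 341. These 3 lists go by name, and whether their genes are confined to those organs was not tested. Highest by mean level in each were hits to APETALA 2 (51 at 0 h), ROOT HAIR DEFECTIVE 3 (24.7) and knotted-1-like 3 (194.7). None of the flower, root and meristem markers was listed at 0. Of 8 measured meristem markers, 6 were higher and 2 lower at 12 h than at 0 h, beside 15% and 17.7% of all genes. The 2 included the knotted-1-like 3 hit (TR21166|c0_g1), at 194.7, 91, 194.7 and 212.8. The part of these changes in the gibberellin results was not tested.

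In the textbook pathway, terpene cyclases in the plastid make ent-kaurene, cytochrome P450 oxidases convert it to the first gibberellin, and soluble dioxygenases finish or destroy the hormone. The 20-oxidases and 3-oxidases make active gibberellin, while 2-oxidases inactivate it or its precursors. Active gibberellin binds the receptor GID1, which then marks the DELLA proteins, nuclear repressors of growth, for breakdown. In Arabidopsis, DELLA proteins also bind the JAZ repressors of the jasmonate pathway. GASA-type peptides (GAST1, Snakin and relatives) are small secreted cysteine-rich proteins, many of which were first found as transcripts raised by gibberellin.

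Both receptor hits were higher at 12, 24 and 48 h than at 0 h, and 6, 7 and 7 of 9 GASA-type peptide hits were lower. Of 6 hits to 2-oxidases, 4, 4 and 3 were higher, and of 8 DELLA hits, 5, 3 and 3 were lower. At 12 h, 8 of 34 genes were higher and 14 lower than at 0 h, beside backgrounds of 15% higher and 17.7% lower among the 29399 genes. At 24 h, 8 were higher and 13 lower (backgrounds 13.4% and 16.9%), and at 48 h, 9 were higher and 13 lower (12.2% and 19.6%). As shares of the 34, those were 23.5%, 23.5% and 26.5% higher and 41.2%, 38.2% and 38.2% lower. The median differences of the 34 were -0.55, -0.22 and -0.46 on the log2(level + 1) scale at 12, 24 and 48 h (the 48 h median was 0.12 with pieces of 1 assembly component summed), and those of all 29399 genes were 0.06, 0.01 and -0.09. Since the classes lay on opposite sides, the median over the 34 describes none of them.

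**Figure D1:**
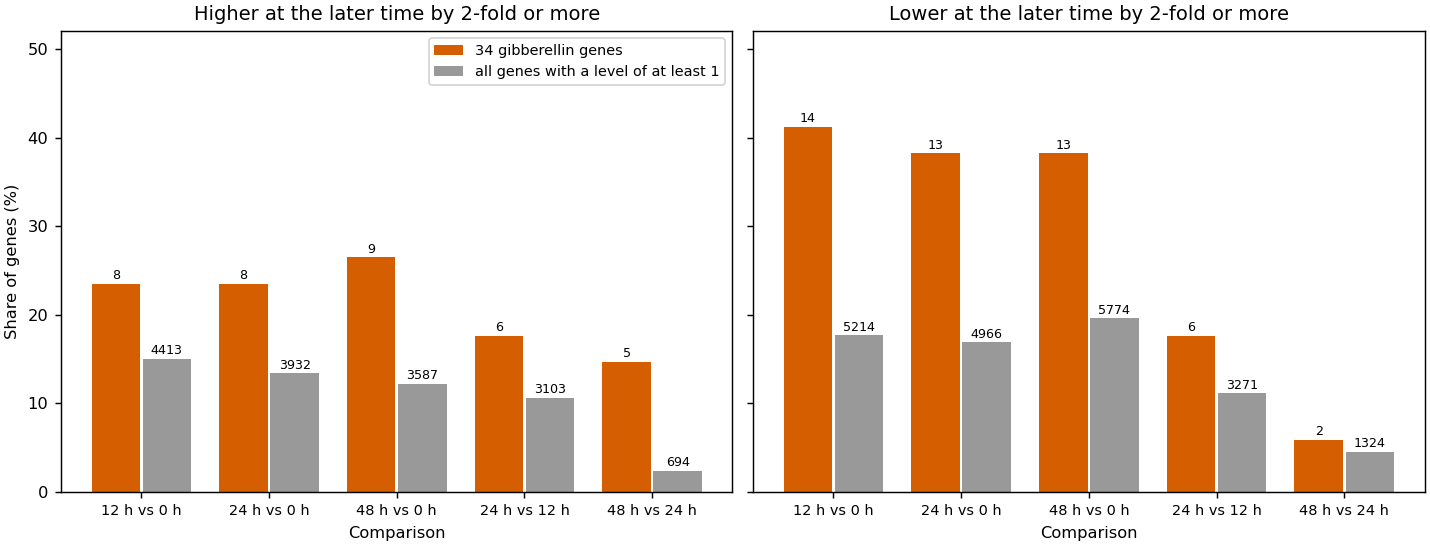
Share of genes (%) higher (left panel) or lower (right panel) by 2-fold or more in each comparison of 2 times, for the 34 gibberellin genes (orange) and all 29399 measured genes (grey), with the number of genes above each bar. The orange bars are the taller ones in all 5 comparisons, and the gap is smallest for genes lower at 48 h than at 24 h (2 of 34, or 5.88%, beside 4.5%).

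Genes of the early oxidation steps were few. The single ent-kaurene oxidase hit (TR44407|c0_g1, best hit in Arabidopsis), a cytochrome P450 that makes ent-kaurenoic acid, was at 8.14, 9.05, 16.2 and 16.3 at 0, 12, 24 and 48 h. Its difference from 0 h was 0.14, 0.91 and 0.92, under the 2-fold limit at each time, although median-of-ratios scaling placed the 48 h value at 1.01. An ent-kaurenoic acid oxidase hit (TR55239|c0_g1), the next P450 of the route, was at 1.91, 0.0833 and 0.206 at 0, 12 and 24 h and listed at 0 at 48 h. It was counted as lower at all 3 later times, from a maximum close to the minimum level. Among genes outside the name rule, and chosen after its values were seen, the ent-kaur-16-ene synthase hit TR39965|c0_g1 stayed below 1 throughout, at 0.425, 0.363, 0.616 and 0.288.

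The 20-oxidases, which carry out the successive oxidations that lead to the direct precursors of active gibberellin, differed in timing. The hit to Arabidopsis gibberellin 20 oxidase 1 (TR47285|c1_g2) was at 78.5, 118.4, 21.5 and 10.1. Its level at 12 h was above that at 0 h by 0.59 on the log2(level + 1) scale, within the 2-fold limit, and the differences were then -1.82 at 24 h and -2.84 at 48 h. The hit to gibberellin 20 oxidase 2 (TR78431|c1_g1) was at 27.8, 0.863, 0.658 and 6.78. This gene was thus low as early as 12 h, with differences from 0 h of -3.95, -4.12 and -1.89, and from 24 to 48 h it had the 57th most positive difference of the 29399 genes, 2.23. The third hit, to a wheat enzyme (TR32307|c0_g1), was at 0.637, 0.338, 1.70 and 1.21, and was not counted against 0 h at any time, although a pseudocount of 0.1 turned its 24 h difference from 0.72 into 1.29.

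All 3 hits to 3-oxidases, which catalyse the step that yields active gibberellin, had their highest level at 48 h. Those were TR3939|c0_g1, named for the pea enzyme encoded by the stem length gene LE, at 1.75, 0.333, 1.64 and 5.43, and TR20880|c0_g3, with the same pea name, listed at 0 at 0 h and then at 3.34, 2.90 and 5.11. The third, TR67649|c0_g1, named for an Arabidopsis 3-oxidase, was listed at 0 at 0 and 24 h and was at 0.677 at 12 h and 2.23 at 48 h. At 48 h all 3 were counted as higher than at 0 h, with differences of 1.23, 2.61 and 1.69. At 12 h they did not move together, with differences of -1.05 for TR3939|c0_g1, 2.12 for TR20880|c0_g3 and 0.75 for TR67649|c0_g1 (2.96 with a pseudocount of 0.1). These maxima, 2.23 to 5.43, are low, and the depth behind them is unknown. On the same assembly component as TR20880|c0_g3, a leucoanthocyanidin dioxygenase hit (TR20880|c0_g4) was at 3.30, 202, 300 and 245, and how far reads were shared between the 2 pieces was not tested.

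Hits to 2-oxidases included the largest positive differences of the 34 genes at 12, 24 and 48 h. TR33497|c0_g1, named for gibberellin 2-beta-dioxygenase 1 of pea, was at 0.894, 475, 253.5 and 147.4. Its differences from 0 h were 7.97, 7.07 and 6.29, which ranked 23rd, 24th and 42nd from the top of the 29399 genes. The level was highest at 12 h and lower at each later time, with differences of -0.90 at 24 h against 12 h and -0.78 at 48 h against 24 h, both within 2-fold.

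Other 2-oxidase hits followed different courses. TR17186|c0_g1, with the same pea name, was at 12.6, 84.1, 26.65 and 21.8, so its 12 h level was 6.69 times that at 0 h. This excess was 1.03 on the log2(level + 1) scale at 24 h (0.98 with median-of-ratios scaling and 0.88 with columns set to 1 sum, both under the limit) and 0.75 at 48 h. The 2 hits to gibberellin 2-beta-dioxygenase 8, which in Arabidopsis acts on precursor gibberellins, parted after 12 h: TR67468|c1_g4 was at 0.163, 23.65, 19.4 and 15.5, and TR64558|c0_g1 at 0.0457, 4.995, 0.138 and 0.134. Thus TR67468|c1_g4 was counted as higher at all 3 later times, by 4.41, 4.13 and 3.83, and TR64558|c0_g1 at 12 h alone, by 2.52. No protein was predicted for TR67468|c1_g4, so no oxygenase domain could be sought in it. On its component, an inositol-tetrakisphosphate 1-kinase 2 hit (TR67468|c1_g1) was at 7.43, 82.1, 106.1 and 98.95. How far reads were shared between these 2 pieces was not tested.

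Another 2-oxidase hit ran the other way in time. TR47096|c0_g1, named for a 2-oxidase of runner bean, was at 0.0307, 0.413, 5.01 and 21.9, highest at 48 h. It was within 2-fold of 0 h at 12 h, by 0.46, a value that a pseudocount of 0.1 turned into 1.97, and it was higher by 2.54 at 24 h and 4.47 at 48 h. The remaining TR17186|c1_g1, at 0.429, 1.33, 0.296 and 0.0807, was not counted against 0 h at any time, with differences of 0.70, -0.14 and -0.40. At these low levels the pseudocount decides: with 0.1 in place of 1, it was counted as higher at 12 h (1.43) and as lower at 48 h (-1.55).

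Of the 6 hits to 2-oxidases, 4 were counted as higher and none as lower at 12 h, again 4 and none at 24 h, and 3 and none at 48 h, beside 15%, 13.4% and 12.2% of all genes higher. Their highest level fell at 12 h in 5 of 6 cases (83.3%) and at 48 h in the other, where 32.2% of all 29399 genes had their highest level at 12 h and 15.5% at 48 h. Between 12 and 24 h, 2 of the 6 were lower and 1 higher, beside 11.1% and 10.6% of all genes.

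**Figure D2:**
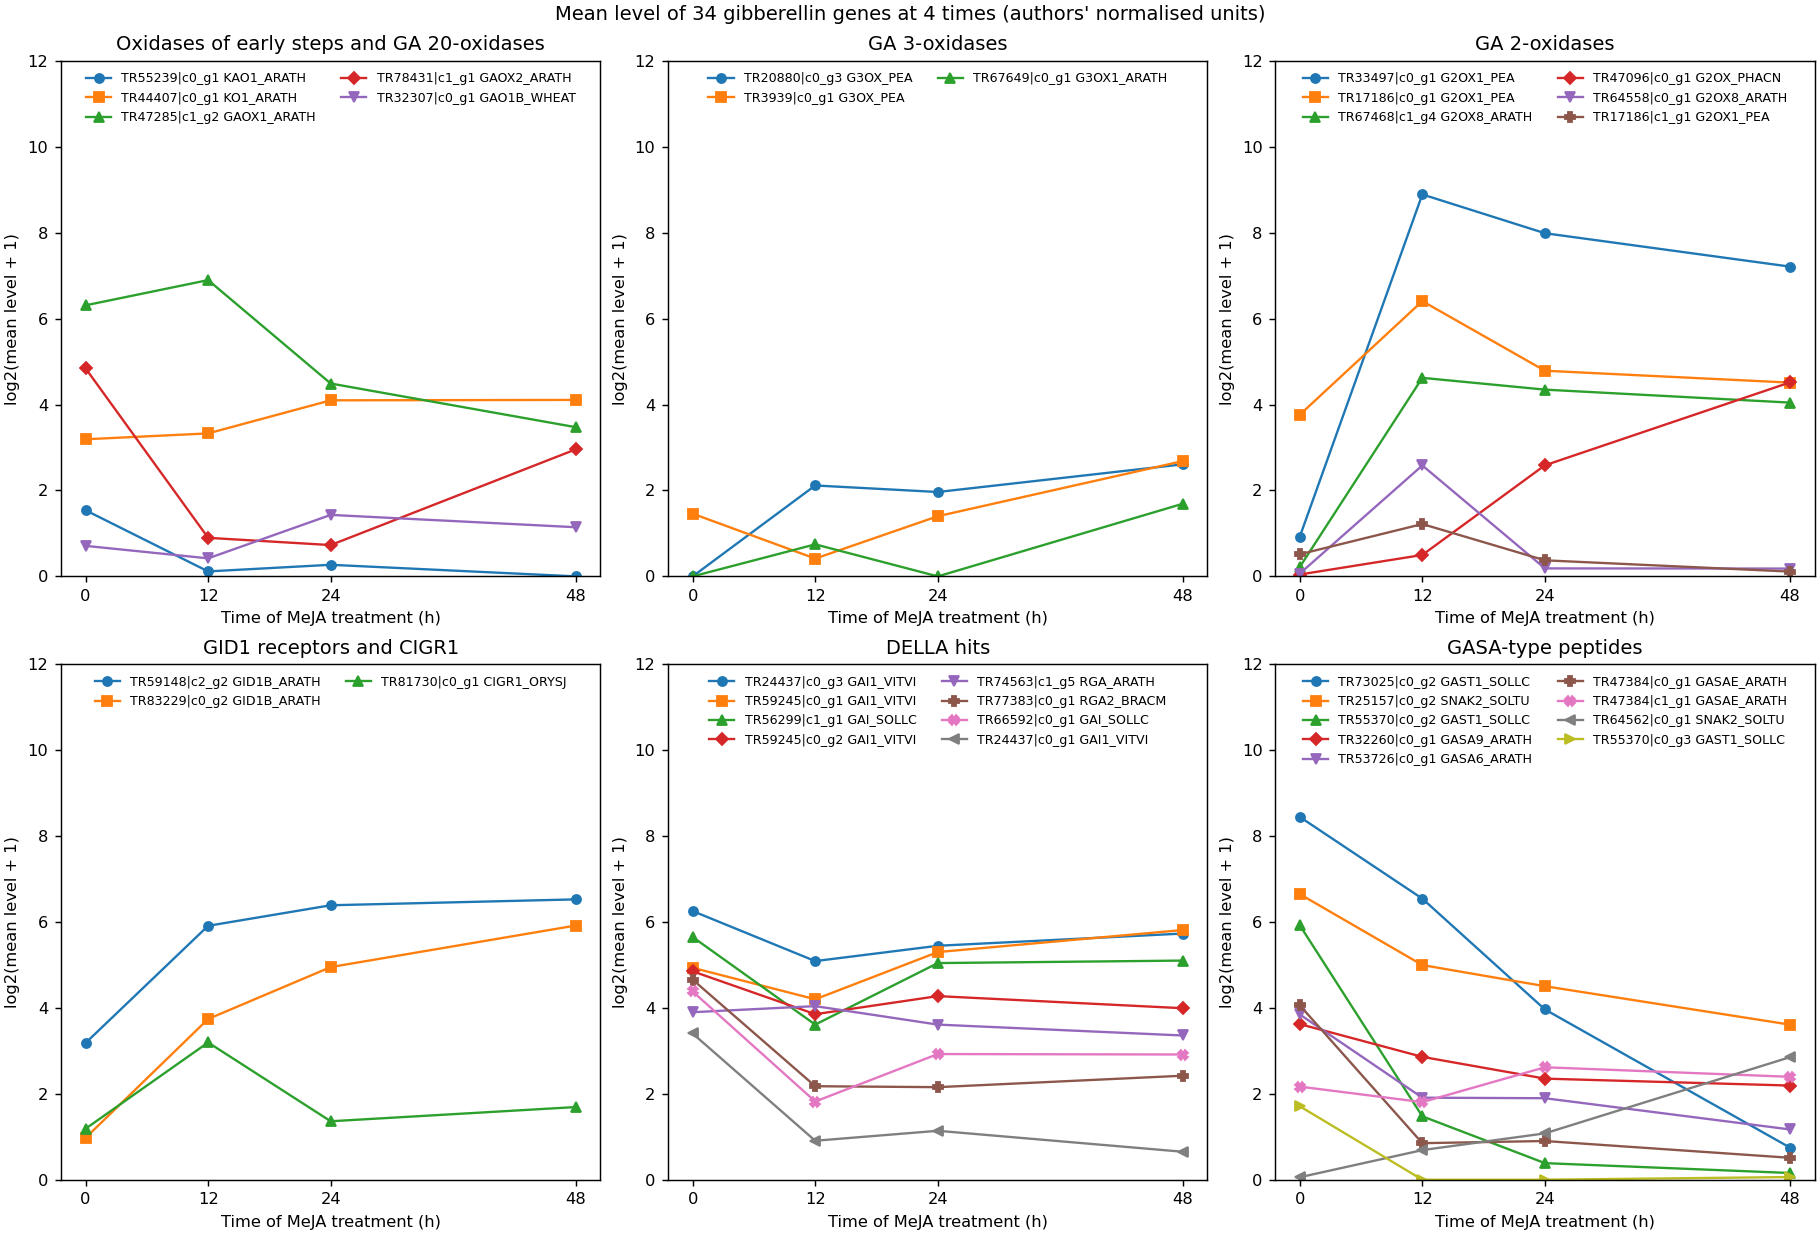
Mean level of each of the 34 genes on the log2(level + 1) scale (vertical axis, the same range in every panel) at 0, 12, 24 and 48 h of MeJA treatment, with 1 line per assembled gene labelled with its Swiss-Prot entry. The 2-oxidase TR33497|c0_g1 is at its highest at 12 h (475), both GID1 lines are highest at 48 h, 7 of 8 DELLA lines are lower at 12 h than at 0 h, and the GAST1 hit TR73025|c0_g2 is lower at each successive time.

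Both hits to the gibberellin receptor were at higher levels at every later time. Each was named for GID1B of Arabidopsis and had the hydrolase fold of that family. TR59148|c2_g2 was at 8.09, 59.25, 82.9 and 91.3, or 7.33, 10.3 and 11.3 times its 0 h level at 12, 24 and 48 h. TR83229|c0_g2 was at 0.965, 12.4, 29.95 and 59.55, with differences from 0 h of 2.77, 3.98 and 4.95 and a 24 h level 2.42 times that at 12 h. Neither level came down again within 48 h, and from 24 to 48 h the differences were 0.14 and 0.97. The latter, of TR83229|c0_g2, was 1.11 with median-of-ratios scaling and 1.02 with a common column sum, both over the limit. The second receptor hit shares its assembly component with a NAC domain-containing protein 72 hit (TR83229|c0_g1), a transcription factor gene at 3.95, 308, 311 and 283.5, and with an unnamed piece (TR83229|c0_g3) at 1.02, 111.5, 19.4 and 46.7. How far reads were shared among these pieces was not tested.

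DELLA hits were at lower levels at 12 h, and part of them were closer to their 0 h level afterwards. At 12 h, 5 of 8 were lower and none higher, at 24 h and at 48 h 3 of 8 were lower and none higher, and the medians were -1.60, -0.71 and -0.70. The shares of all genes that were lower were 17.7%, 16.9% and 19.6%. For 1 of the 3 hits lower at 24 and 48 h, TR77383|c0_g1, no protein was predicted, so neither a DELLA nor a GRAS domain could be found. Another hit, TR59245|c0_g2, lay just short of the limit at 12 h, at -0.999, and was counted under a pseudocount of 0.1, median-of-ratios scaling and a common column sum. At 12 h, 7 of the 8 had a level below that at 0 h. Between 12 and 24 h, 3 of 8 were higher and none lower, beside 10.6% and 11.1% of all genes. Of the 3, TR59245|c0_g1, was at 1.10 for that step, or 0.86 with both pieces of its component summed.

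Hits to tomato GAI, the tomato form of the repressor first known from a dwarf Arabidopsis mutant, were TR56299|c1_g1, at 49.3, 11.2, 32.0 and 33.4, and TR66592|c0_g1, at 19.9, 2.53, 6.60 and 6.55. They kept different shares of their level: TR56299|c1_g1 was at 0.228 of its 0 h level at 12 h and 0.650 at 24 h, while TR66592|c0_g1 was at 0.128 and 0.332. Of the hits to grape GAI1, TR24437|c0_g3 was at 75.5, 33.1, 42.7 and 52.2, TR59245|c0_g1 at 29.6, 17.4, 38.4 and 55.3, and TR59245|c0_g2 at 27.9, 13.5, 18.4 and 14.9. TR59245|c0_g1 alone of the 8 had its highest level at 48 h, 0.88 above 0 h and within 2-fold. The remaining GAI1 hit, TR24437|c0_g1, was at 9.60, 0.876, 1.203 and 0.570, with differences of -2.50, -2.27 and -2.76. TR77383|c0_g1, named for RGA2 of Brassica, was at 24.3, 3.52, 3.46 and 4.36, also lower at all 3 times.

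Not every DELLA name rests on the DELLA domain. The authors' domain search found the amino-terminal DELLA domain in 4 of the 8 (TR24437|c0_g1, TR59245|c0_g1, TR66592|c0_g1 and TR56299|c1_g1) and in no other measured gene, and the GRAS domain, which DELLA proteins share with a wider family of regulators, in 6. TR77383|c0_g1 had no predicted protein. The hit to Arabidopsis RGA (TR74563|c1_g5) had a predicted protein with a signal peptide, neither domain and no Swiss-Prot protein match, and lay beside hits to a splicing factor on its component, so its name is weakly based. It was at 13.9, 15.5, 11.2 and 9.26, within 2-fold of 0 h throughout. The 4 genes with the DELLA domain differed from 0 h by -2.50, -0.73, -2.56 and -2.04 at 12 h, in the order given above, and by -2.76, 0.88, -1.47 and -0.55 at 48 h.

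GASA-type peptide hits had the lowest values of the 34 genes relative to 0 h. Of 9, none was higher and 6 were lower at 12 h, and 1 was higher and 7 lower at both 24 h and 48 h, with medians of -1.71, -1.95 and -2.68. The shares lower among all genes were 17.7%, 16.9% and 19.6%. In 7 of 9 (77.8%) the highest level was at 0 h, beside 32.9% of all genes. The tomato GAST1 name covers 3 pieces. TR73025|c0_g2 was at 348.5, 92.4, 14.6 and 0.678, with differences from 0 h of -1.90, -4.48 and -7.70, and at 48 h it had the 3rd most negative difference of the 29399 genes. It was lower at each step too, with differences of -2.58 at 24 h against 12 h and -3.22 at 48 h against 24 h.

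TR55370|c0_g2, also a GAST1 hit, was at 59.8, 1.78, 0.307 and 0.115. Most of its difference was present at 12 h, at -4.45, against -5.54 and -5.77 at 24 and 48 h. The third piece, TR55370|c0_g3 on the same component, was at 2.27 at 0 h, listed at 0 at 12 and 24 h and at 0.044 at 48 h. The Snakin-2 name, that of an antimicrobial peptide of potato, covers 2 genes with opposite courses. TR25157|c0_g2 was at 99.55, 31.0, 21.7 and 11.2, with differences of -1.65, -2.15 and -3.04. TR64562|c0_g1 was at 0.0407, 0.613, 1.11 and 6.23, and was the single GASA-type peptide counted as higher, by 1.02 at 24 h (0.99 with median-of-ratios scaling) and by 2.80 at 48 h. Its 12 h difference was 0.63, or 2.34 with a pseudocount of 0.1.

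Among hits to Arabidopsis gibberellin-regulated proteins, the GASA14 hit TR47384|c0_g1 was at 15.7, 0.804, 0.868 and 0.425, with differences of -3.21, -3.16 and -3.55. A second GASA14 hit, TR47384|c1_g1, was at 3.495, 2.50, 5.14 and 4.265, within 2-fold of 0 h at each time, and had no predicted protein. The hits to GASA6 (TR53726|c0_g1), at 13.4, 2.76, 2.73 and 1.25, and to GASA9 (TR32260|c0_g1), at 11.3, 6.27, 4.11 and 3.57, had their highest level at 0 h. The 4 genes of this class outside the rule for named genes, TR32260|c0_g1, TR53726|c0_g1, TR47384|c1_g1 and TR55370|c0_g3, are named to complete the class.

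The last of the 34, TR81730|c0_g1, was named for CIGR1, a GRAS protein of rice whose transcript responds to chitin and gibberellin. It was at 1.28, 8.17, 1.57 and 2.23. The level at 12 h was 6.39 times that at 0 h, and the differences at 24 and 48 h were 0.17 and 0.51, within the limit.

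**Figure D3:**
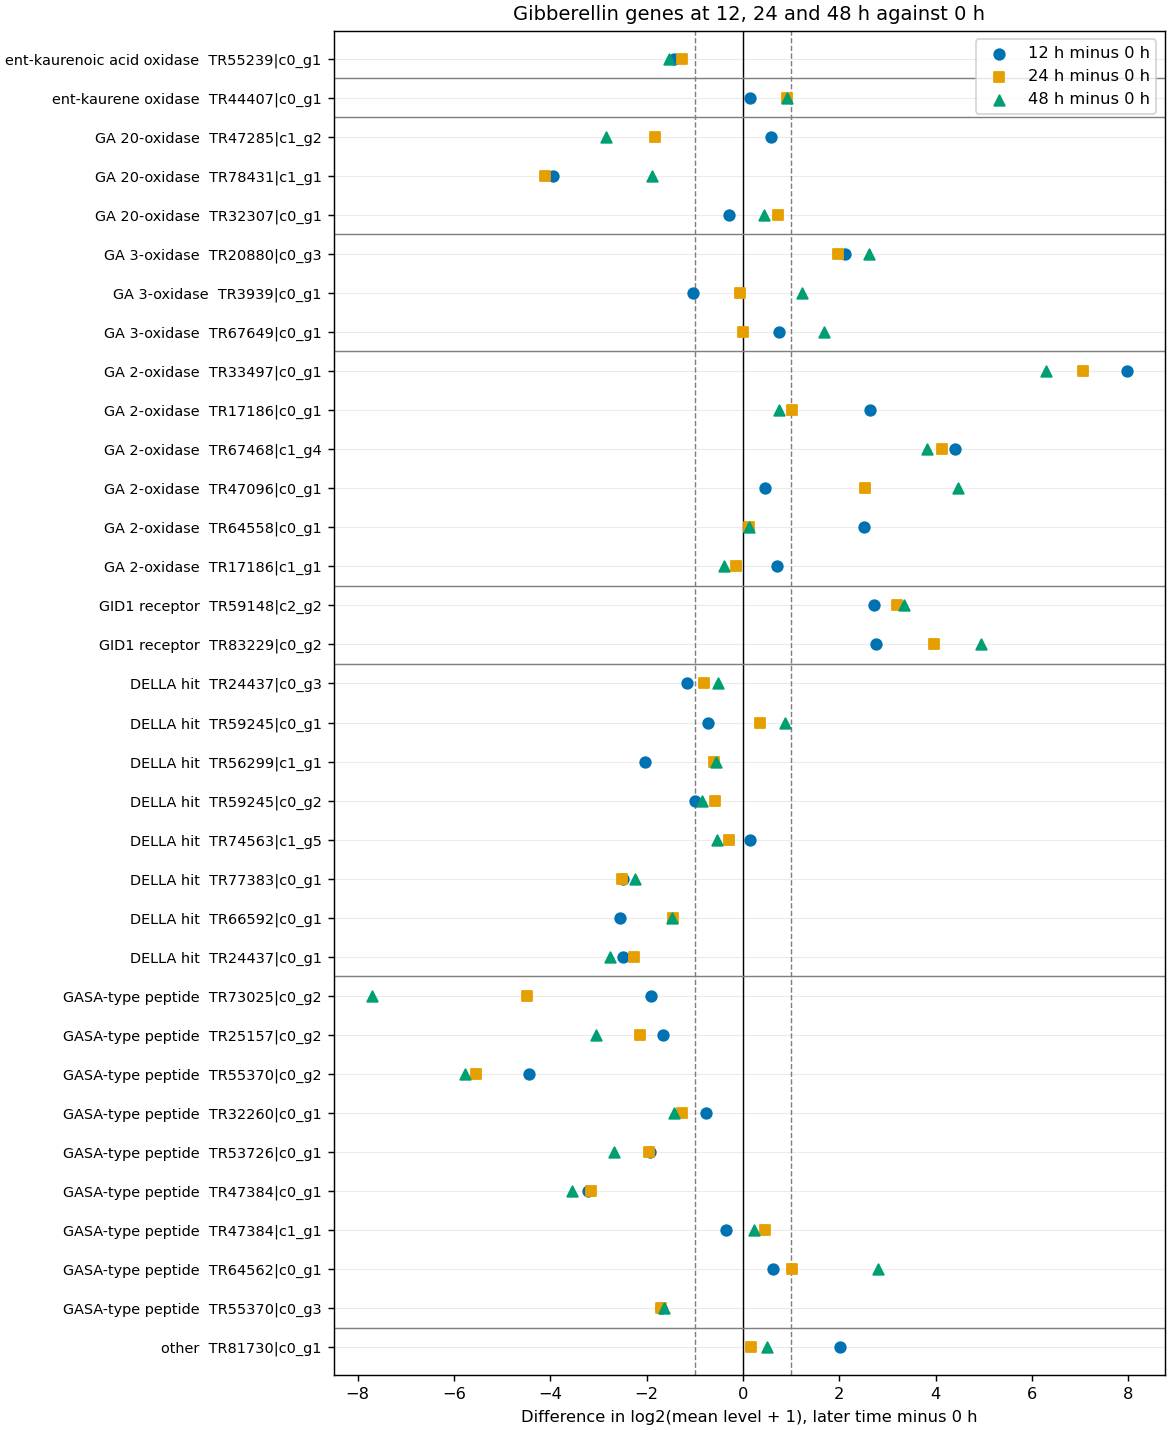
Difference in log2(mean level + 1) from 0 h (horizontal axis) for each of the 34 genes, grouped by role, at 12 h (circles), 24 h (squares) and 48 h (triangles), with dashed lines at the limits of -1 and 1. The 2-oxidases and GID1 receptors lie mostly right of 1, and DELLA and GASA-type peptides mostly left of 0. The 20-oxidases, 3-oxidases, 2-oxidases, DELLA hits and GASA-type peptides all include points on both sides of 0.

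In the steps from 12 to 24 h and from 24 to 48 h, 22 and 27 of the 34 genes were counted in neither direction. At 24 h, 6 of 34 were higher and 6 lower than at 12 h, beside backgrounds of 10.6% and 11.1%. The 3 most positive were TR47096|c0_g1 (2-oxidase, 2.09), TR56299|c1_g1 (DELLA, 1.43) and TR83229|c0_g2 (receptor, 1.21), and the 3 most negative TR73025|c0_g2 (GAST1, -2.58), TR47285|c1_g2 (20-oxidase, -2.41) and TR64558|c0_g1 (2-oxidase, -2.40). At 48 h, 5 were higher and 2 lower than at 24 h, beside backgrounds of 2.36% and 4.5%. The 5 were the 20-oxidase TR78431|c1_g1, the 3-oxidases TR3939|c0_g1 and TR67649|c0_g1, the 2-oxidase TR47096|c0_g1 (by 1.93) and the Snakin-2 hit TR64562|c0_g1 (by 1.78). The 2 were TR73025|c0_g2 and TR47285|c1_g2, of which the 20-oxidase was at -1.02 (-0.89 with median-of-ratios scaling and -0.97 with a common column sum). The highest level of the 34 genes fell at 0 h for 15, at 12 h for 8, at 24 h for 2 and at 48 h for 9, or 44.1%, 23.5%, 5.88% and 26.5%. Over all genes those shares were 32.9%, 32.2%, 19.4% and 15.5%.

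Protein domains and signal peptides, which the name rule does not use, fitted most names. Of the 34, 28 had a predicted protein, and for 26 the protein's best Swiss-Prot entry was the one that gave the name. That protein search used the same database as the naming search, so it is no independent check of the names. The GASA domain was found in 7 of the 9 GASA-type peptides and in no other measured gene. The same 7 had a predicted signal peptide, a feature of 7.75% of the 19462 measured genes with a predicted protein. The rest of that class had no predicted protein. All 3 of the 20-oxidases, 2 of 3 3-oxidases and 4 of 6 2-oxidases had the 2OG-Fe(II) oxygenase domain. The rest of these oxidases (TR67649|c0_g1, TR67468|c1_g4 and TR17186|c1_g1) had no predicted protein. The 34 genes covered 21 Swiss-Prot entries and 31 assembly components, so some may be pieces or copies of 1 gene of the plant, and TR24437, TR59245 and TR55370 each held 2 members on 1 component.

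The classes were set beside other genes that share a domain or feature with them. Both receptor hits were higher at 12 h and their median was 2.75, while 9 of 37 other genes with that hydrolase fold were higher, 10 were lower and the median was -0.13. At 48 h the medians were 4.15 and -0.10. The 7 GASA-type peptides with a signal peptide had medians of -1.90, -2.15 and -3.04 at 12, 24 and 48 h, and 1500 other genes with a signal peptide had 0.03, -0.11 and -0.22. Among genes with a GRAS domain, the 7 members (6 DELLA hits and CIGR1) had medians of -1.17, -0.61 and -0.55, and the 27 others -0.43, -0.18 and -0.01. For the 2OG-Fe(II) oxygenase domain, 4 of 9 gibberellin oxidases (44.4%) were higher at each later time, against 40.4%, 31.6% and 26.3% of 57 others at 12, 24 and 48 h. At each time 2 of 9 (22.2%) were lower, against 10.5%, 14% and 12.3% of the others. No test of these differences can be made from 1 mean per time.

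**Figure D4:**
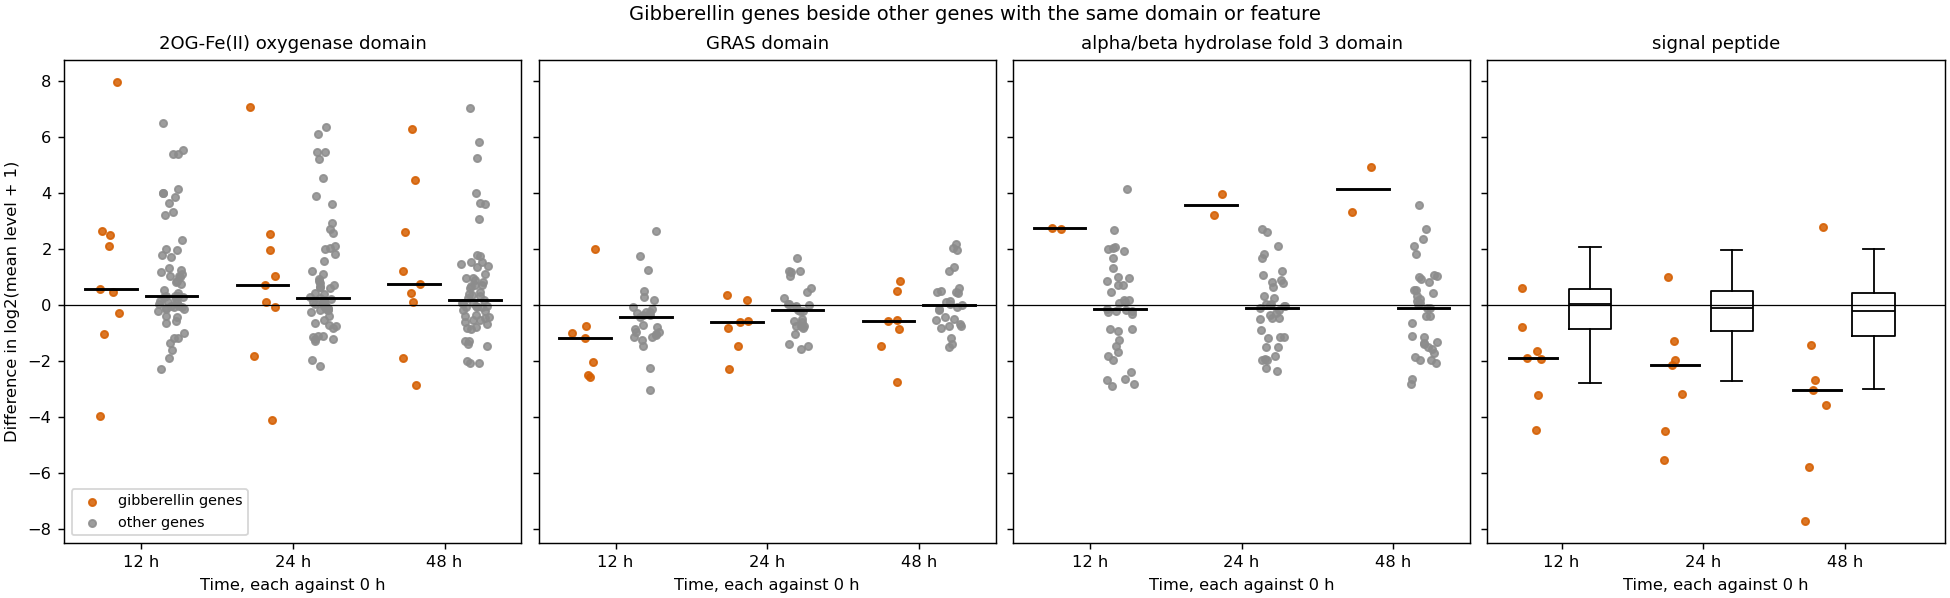
Difference in log2(mean level + 1) from 0 h (vertical axis) at 12, 24 and 48 h for gibberellin genes (orange points) and other genes (grey points, or boxes for the 1500 with a signal peptide) that have the domain or feature named above each panel. Horizontal bars are medians, boxes span the middle of the values and whiskers the percentiles 5 to 95. The receptor hits have medians of 2.75, 3.59 and 4.15 and lie above the median of the other genes with their fold at each time. At 12 h a single other gene with that fold lies above them, at 4.14, and at 48 h some of those others lie as high. The oxidases and GRAS proteins overlap the others too.

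Genes around the pathway that are not members were counted by name. Of 73 measured genes (geranylgeranyl and ent-copalyl diphosphate synthases, SPINDLY, GAMYB, SCARECROW-like 3, PIF, indeterminate-domain and BOI-related proteins), 13 were higher and 21 lower at 12 h, 20 and 15 at 24 h, and 24 and 15 at 48 h. Higher were 17.8%, 27.4% and 32.9%, beside 15%, 13.4% and 12.2% of all genes, and lower were 28.8%, 20.5% and 20.5%, beside 17.7%, 16.9% and 19.6%. Thus the share higher at 12 h and the share lower at 48 h lay near those of all genes. The names GID2, SLEEPY and GAI-ASSOCIATED FACTOR matched 0 genes. Of the 4 phytochrome-interacting factors, light-regulated growth factors that DELLA proteins hold inactive, 3 were lower at 12 h and none at 24 or 48 h; the PIF3 hit TR49690|c0_g2 was at 41.0, 16.6, 71.2 and 44.0. Indeterminate-domain proteins, zinc finger factors some of which bind DELLA proteins in Arabidopsis, had 5 of 33 higher and 5 lower at 12 h and 14 higher and 3 lower at 48 h. At 12 h these shares, 15.2% each way, lay near those of all genes. The most abundant of that name by mean level, TR13366|c1_g2, was at 18.3, 30.4, 70.1 and 77.4.

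SPINDLY, a sugar transferase that acts on DELLA proteins, had 3 measured hits: TR49754|c1_g3, at 22.6, 22.6, 25.4 and 26.1, TR49754|c1_g4, at 0.722, 0.790, 0.791 and 1.41, and TR14221|c0_g1, at 6.26, 14.4, 8.20 and 9.45. TR14221|c0_g1 alone was counted, as higher at 12 h by 1.08. Neither GAMYB hit was counted at any time, and TR46552|c0_g1 was at 4.70, 3.73, 4.83 and 3.42. The SCARECROW-like protein 3 hit TR67111|c0_g1 was at 1.71, 0.492, 1.63 and 1.47 and was not counted against 0 h. The other, TR55827|c0_g1, was at 2.78, 0.704, 0.290 and 0.438 and was lower at all 3 later times, with differences of -1.15, -1.55 and -1.39. The second hits of these small lists lie outside the rule for named genes and were added after their values were seen. BOI-related ligases, which bind DELLA proteins in Arabidopsis, had 1 of 15 higher and 7 lower at 12 h and 3 higher and 6 lower at 48 h, with TR68375|c0_g1 at 30.0, 40.6, 72.1 and 66.9. Upstream of gibberellins, where the route parts from that of labdane diterpenes, 3 of 5 ent-copalyl diphosphate synthase hits were higher and 2 lower at each later time. Those 3 were pieces of 1 assembly component, TR66725|c19, and the 2 pieces of another, TR57874|c0, with highest levels of 1.84 and 2.09 at 0 h. The geranylgeranyl diphosphate synthases had 3 of 9 higher and 3 lower at 12 h and 4 and 3 at 48 h. Of all genes, 15%, 13.4% and 12.2% were higher and 17.7%, 16.9% and 19.6% lower at 12, 24 and 48 h.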

How the data were processed

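Leaf RNA of 4 times (0, 12, 24 and 48 h of MeJA, 3 labelled replicates each) was measured by RNA sequencing. Tools listed in the submitters' processing notes, with no role given, are RSEM 1.2.19, Trimmomatic 0.33, FastQC 0.11.3 and CASAVA. The deposited table gives 1 expression signal per assembled gene and time; 100% of its values are multiples of 0.001 divided by 3 (tolerance 0.003 of a step), as means of 3 would be. The sources used here name neither its scale nor the assembler or reference. Column sums were 866243, 973347, 965390 and 932777, and 1 emptied line was skipped.

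Each time was compared on log2(level + 1) among genes with a level of at least 1, and a difference of 1 or more was counted (Python 3.11.15, pandas 2.3.3, numpy 2.4.6). With 1 mean per time, no test was possible. The steps were checked on simulated data. Members and lists were chosen with earlier results of these data known.

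The rule for named genes took every member of a role class of 8 or fewer, the 3 highest mean levels of a larger class, the 6 largest differences each way against 0 h and the 3 largest each way between later times; it named 30 of the 34. Alternatives changed the pseudocount, level filter, scaling, counting of pieces, size limit and naming search. No table used here pairs the assembled genes with sequences, so none is shown.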

Additional observations from a re-analysis of the deposited data

How the results depend on the processing

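No paired analysis was possible because the table holds 1 mean per time, and for the same reason no replicate could be left out and no replicate block fitted. No counted difference changed sign. The median over the members was less stable: against 0 h it ran between -0.88 and -0.29 at 12 h, between -0.71 and -0.06 at 24 h and between -0.70 and 0.12 at 48 h, positive at 48 h with pieces of 1 component summed. Of 84 counted differences over the 5 comparisons, 81 were still counted with median-of-ratios scaling and 82 with a common column sum, and 14 more were gained with a pseudocount of 0.1. With columns set to 1 sum, the median of all genes was -0.07, -0.11 and -0.18 at 12, 24 and 48 h, against 0.06, 0.01 and -0.09 as deposited. Most counts fell where fewer genes or a stricter limit were used, but not all: 8 were still higher at 12 h with a limit of 2 on the log2 scale, and 2 were still lower at 48 h against 24 h with a level of at least 10 and with 1 gene per entry. The counts that moved by over 1.5 times follow. With a level of at least 10 (22 genes), 5 were higher at 12 h, 5 at 48 h and 2 at 48 h against 24 h. With 1 gene per Swiss-Prot entry (21 genes), 5 were higher and 9 lower at 12 h, 5 were higher at 24 h, 3 were higher and 3 lower at 24 h against 12 h, and 3 were higher at 48 h against 24 h. With a limit of 2 on the log2 scale, 7 were lower at 12 h, 5 were higher and 7 lower at 24 h, 8 were lower at 48 h, 1 was higher and 3 lower at 24 h against 12 h, and 1 was higher and 1 lower at 48 h against 24 h. The number lower at 48 h against 24 h was 2, and it was 5 with a pseudocount of 0.1 and 1 with either rescaling. Taking the protein search first added 2 genes, TR48311|c4_g4 and TR58573|c1_g3, and restricting to the 28 genes with a predicted protein was an alternative chosen after seeing the data; neither moved a count by over 1.5 times. The unknown depth limits what can be said of levels near 1.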

Other observations

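Genes that the authors' annotation ties to gibberellin by a Gene Ontology term, without the name, were also counted; this list was chosen after the data were seen. Of 144 measured genes with such a term, 26 were members and 118 were not. Among the 118, 17 were higher and 39 lower at 12 h than at 0 h, 20 and 25 at 24 h, and 16 and 27 at 48 h, with medians of -0.39, 0.04 and -0.09. Higher were 14.4%, 16.9% and 13.6%, beside 15%, 13.4% and 12.2% of all genes. Lower were 33.1%, 21.2% and 22.9%, beside 17.7%, 16.9% and 19.6%, so the shares apart from that lower at 12 h lay within 5 percentage points of those of all genes.

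The genes below were picked after their values were seen, and no theme was tested. The most positive difference of the 118 at 12 h was that of an ethylene receptor 1 hit (TR79615|c17_g1), at 19.1, 4660, 3982 and 4786 at 0, 12, 24 and 48 h. The most negative was that of the clock gene LHY (TR49676|c1_g3), at 383, 0.7003, 494 and 475. Clock time is not stated in the labels, and its part in these values was not tested.

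Hits that share a name did not always move together. Of the small helix-loop-helix proteins of the PRE family, which promote cell elongation in Arabidopsis, the PRE5 hit TR49680|c1_g2 was at 90.9, 9.495, 3.53 and 0.944. The PRE1 hits were at 3.10, 4.71, 7.905 and 4.14 (TR42908|c0_g2) and at 1.88, 0.389, 4.496 and 1.157 (TR45216|c0_g1). IBH1, which opposes elongation in Arabidopsis, had hits at 12.2, 1.26, 1.10 and 1.11 (TR40802|c0_g1) and at 10.85, 3.32, 3.07 and 2.655 (TR32370|c3_g1). Of 3 hits to the flowering regulator SOC1, TR13824|c2_g1 was at 58.9, 5.68, 46.7 and 67.7, TR79604|c0_g2 at 48.0, 115, 206 and 112, and TR48652|c5_g1 at 79.1, 118, 127 and 97.1.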
